A study of Mus musculus with 18 samples.

Results

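Binding sites of Pitx1 and Tbx5 were examined at 6 mouse genes of joint and digit formation, namely Gdf5, Gdf6, Bmpr1b, Creb5, Barx1 and Barx2. The sites came from chromatin immunoprecipitation with sequencing of limb buds from wild-type CD1 embryos, an outbred strain. Hindlimb buds of e11.5 were used for Pitx1, a hindlimb regulator with a homeodomain, and forelimb buds of e10.5 for Tbx5, a forelimb regulator with a T-box. Both antibodies were homemade. Each factor has 1 sample among the 18 of the series, so no value has a replicate error, and factor, limb, stage and antibody cannot be told apart. Pooling of embryos is not stated in these sources, and peak positions allow no check of the labelled tissue against expressed markers.

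A site is given by its summit, the highest point of a peak called by the authors, on genome build mm10. A summit was counted for a gene when that gene was the nearest protein-coding gene and lay at most 100 kb away, at distance 0 inside the gene. By this rule the 6 genes held 108 of the 54941 Pitx1 summits and 28 of the 10273 Tbx5 summits. The score of a summit is the authors' −log10 q-value of the peak, which rises with the evidence for a peak and with read depth. Read depth is unknown, so scores and numbers of summits were not compared in size between the factors.

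Joints arise where a stripe of condensed cartilage precursors, the interzone, stops forming cartilage and later separates the neighbouring skeletal elements. Gdf5 and Gdf6 encode secreted ligands of the bone morphogenetic protein family. Gdf5 marks the interzone and is needed for joints and digit bones, and Gdf6 is needed for a subset of joints. Bmpr1b encodes the type I receptor through which Gdf5 signals in digit cartilage. Creb5 encodes a leucine zipper transcription factor related to Atf2 that acts in articular cartilage, where it promotes the lubricant gene Prg4. Barx1 and Barx2 are homeobox genes expressed in limb mesenchyme and around developing joints.

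Promoter sequence was at hand for Bmpr1b, Creb5 and Barx1, in 6 windows of 300 bases from RefSeq on GRCm38.p6, the assembly that mm10 represents. Each window runs from 250 bases before a transcript start to 50 bases after it. Pitx1 summits lay inside a window at 1 internal start of Creb5 and at 1 internal start of Bmpr1b. These sequences are shown because the data bear on them, together with the window of the outer Creb5 start, which held no summit. They are written 5′ to 3′ on the strand of the gene, and capitals mark the 21 bases centred on the Pitx1 summit.
Creb5, internal start, chr6:53573124-53573423, plus strand: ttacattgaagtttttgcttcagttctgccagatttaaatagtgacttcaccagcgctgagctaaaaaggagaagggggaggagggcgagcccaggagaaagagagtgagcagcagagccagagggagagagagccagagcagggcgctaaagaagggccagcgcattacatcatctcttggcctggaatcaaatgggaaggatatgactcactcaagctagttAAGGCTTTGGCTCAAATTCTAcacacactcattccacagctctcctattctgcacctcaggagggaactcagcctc
Bmpr1b, internal start, chr3:141931371-141931670, minus strand: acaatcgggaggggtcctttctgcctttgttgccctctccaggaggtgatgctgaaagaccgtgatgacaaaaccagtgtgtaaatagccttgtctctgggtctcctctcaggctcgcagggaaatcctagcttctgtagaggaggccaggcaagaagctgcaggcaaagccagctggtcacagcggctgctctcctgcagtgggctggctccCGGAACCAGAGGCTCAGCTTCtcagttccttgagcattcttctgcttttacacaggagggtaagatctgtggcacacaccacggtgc
Creb5, outer start, chr6:53287053-53287352, plus strand: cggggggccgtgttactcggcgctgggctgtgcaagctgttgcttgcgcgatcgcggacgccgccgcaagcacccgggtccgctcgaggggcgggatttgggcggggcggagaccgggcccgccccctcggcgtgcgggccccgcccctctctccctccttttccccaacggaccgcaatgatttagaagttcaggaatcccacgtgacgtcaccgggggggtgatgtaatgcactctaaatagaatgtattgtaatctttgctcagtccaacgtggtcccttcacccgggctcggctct

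The Creb5 summit, at chromosome 6 position 53573358 with a score of 18.1, lay 16 bp upstream of the internal start at 53573374. At the outer start, 53287303, the nearest Pitx1 summit was 1565 bp downstream with a score of 4.32. The Bmpr1b summit at chromosome 3 position 141931447 lay 27 bp upstream of the start at 141931420, and its score of 2.89 was among the lowest at this gene. The window of a neighbouring Bmpr1b start, 141931588, overlaps the printed one and ends short of that summit. At the third Bmpr1b start in the table, 141982264, a Pitx1 summit with a score of 3.83 was 350 bp downstream. The summit nearest to the Barx1 start, 48663036 on chromosome 13, was 974 bp downstream with a score of 8.28. Windows with a Pitx1 summit were thus 2 of the 6, beside 8.96% of all 32851 windows of the table. The 6 windows belong to only 3 of the genes, include the overlapping pair, and leave out the outer 5′ end of Bmpr1b at 142169585. The difference between these shares was not tested. A Tbx5 summit lay in none of the 6 windows, beside 1.18% of all windows, and the nearest was 2625 bp from a Bmpr1b start. The letters TAATCC, a core recognised by homeodomains of the Pitx type, occurred on either strand in none of the 6 windows and in 7.06% of all windows. The letters AGGTGT, the core of a T-box site, occurred on either strand in none of the 6 and in 13.7% of all. The absence of a match says only that these letters are not in these windows.

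Pitx1 summits were assigned to all 6 genes, beside 54.5% of the 21887 protein-coding genes. Tbx5 summits were assigned to 4 of the 6, namely Bmpr1b, Creb5, Barx1 and Barx2, beside 18.7% of all genes. Those 4 also held a Tbx5 summit with a Pitx1 summit within 200 bp, here called a shared site, beside 8.80% of all genes. Neither ligand gene had a Tbx5 summit. The receptor gene Bmpr1b and the transcription factor gene Creb5 together held 77 of the 108 Pitx1 summits (71.3%) and 25 of the 28 Tbx5 summits (89.3%).

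**Figure D1:**
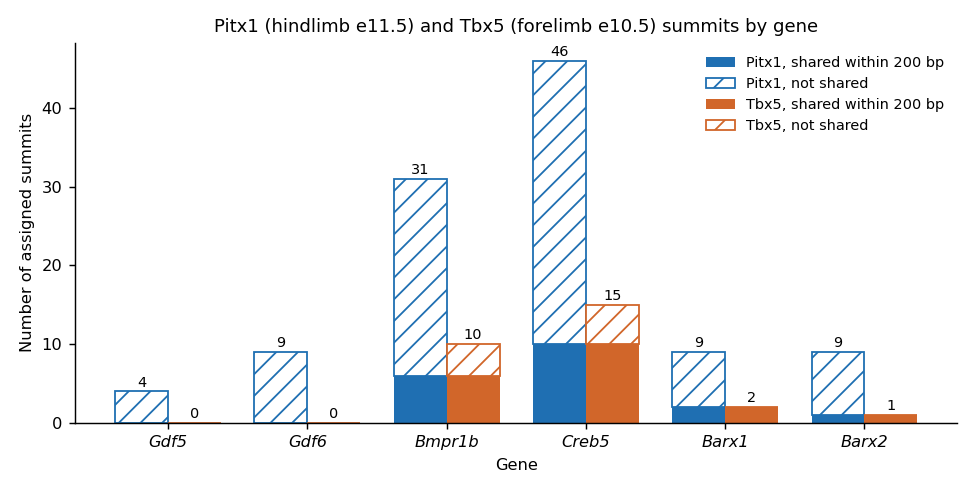
Number of summits assigned to each gene (y axis) for Pitx1 (hindlimb, e11.5) and Tbx5 (forelimb, e10.5), with the shared part filled and the rest hatched. Creb5 held 46 Pitx1 and 15 Tbx5 summits and Bmpr1b 31 and 10, while Gdf5 and Gdf6 held none of Tbx5.

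Genes with larger domains held as many Pitx1 summits or more. A domain is here the genome sequence that the nearest-gene rule gives to 1 gene, and it measured 571 kb for Creb5, 368 kb for Bmpr1b, 219 kb for Barx2, 206 kb for Gdf6, 89.8 kb for Barx1 and 15.2 kb for Gdf5. Per 100 kb of domain, Gdf5 held 26.3 Pitx1 summits, Bmpr1b 8.41, Creb5 8.06, Gdf6 4.38 and Barx2 4.11, and Barx1 stood between Gdf5 and Bmpr1b with 9 summits in its 89.8 kb. The same measure over the domains of all protein-coding genes was 2.35, so each of the 6 genes lay above it. The density of Gdf5 rests on 4 summits in the shortest domain. Tbx5 density was 2.71 per 100 kb at Bmpr1b, 2.63 at Creb5, 2.23 at Barx1 and 0.457 at Barx2, beside 0.415 over all domains. The value of Barx2 rests on 1 summit and lay near that of all domains.

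**Figure D2:**
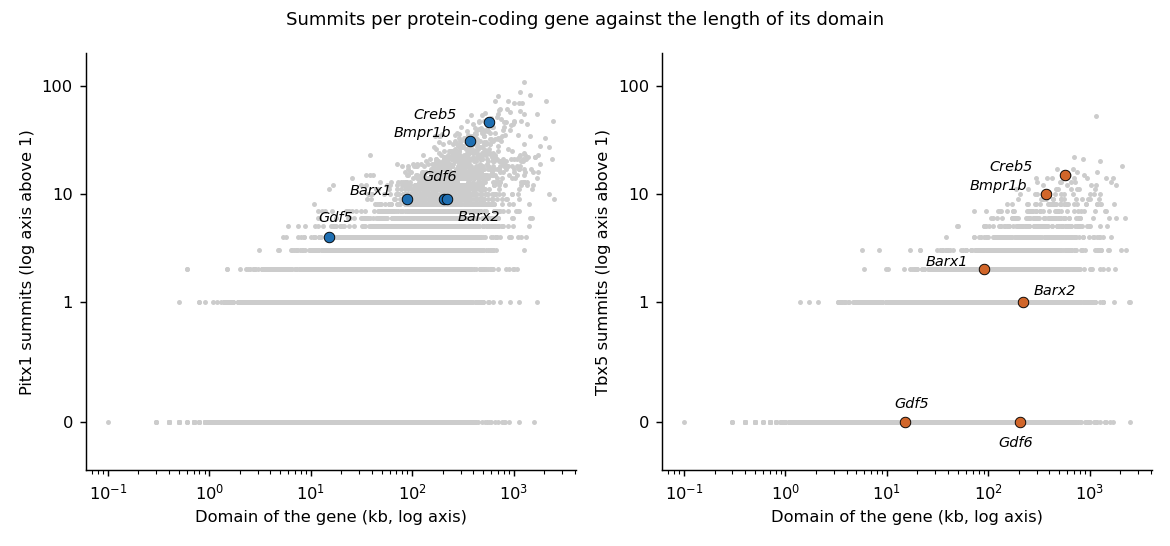
Summits per gene (y axis, 0 and then a log scale from 1) against the domain of the gene in kb (x axis, log scale), for Pitx1 on the left and Tbx5 on the right, with all 21887 protein-coding genes in grey and the 6 genes coloured. Creb5 and Bmpr1b lie in the upper part of both clouds, and Gdf5 and Gdf6 lie at 0 for Tbx5.

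By number of summits Creb5 ranked 31 among all protein-coding genes for Pitx1 and 10 for Tbx5, and Bmpr1b ranked 95 and 40. By density the ranks were lower, at 2026 and 824 for Creb5 and at 1882 and 789 for Bmpr1b. The genes most like Creb5 in domain length and in the density of both factors were Smyd3 (44 Pitx1 and 14 Tbx5 summits, distance 0.152), Epha3 (38 and 13, distance 0.204) and Sox6 (52 and 17, distance 0.308). Those most like Bmpr1b were Ebf2 (34 and 10, distance 0.108), Meis1 (30 and 10, distance 0.184) and Meis2 (24 and 9, distance 0.297). The distance is Euclidean over the log2 of domain length and of both densities, with 0.5 summits added to each count, and rests on 1 library for each factor.

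The scores of the summits were read against those of the whole lists. Pitx1 scores ran from 2.03 to 265 with a median of 9.22, beside a median of 7.07 over the whole list. Of the 108 summits, 11 (10.2%) had at least 35.4, the score that bounds the top 10% of the list, beside 10.2% of the list itself. They were 6 summits at Creb5, 4 at Bmpr1b and 1 at Gdf6. Tbx5 scores ran from 2.61 to 48.8 with a median of 7.65, beside 8.29 over the list, and 1 of the 28, at Creb5, reached the top 10% of its list (44.7 or more), beside 10.1% of the list itself.

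The ligand genes carried Pitx1 sites and no Tbx5 site. Only 18.7% of all protein-coding genes had a Tbx5 summit, so having none is the common state. Gdf5 (chromosome 2, 155941023 to 155945367) held 4 Pitx1 summits. The strongest scored 29.0 and lay inside the gene at position 155943595. A summit at 155949575, 4.21 kb outside the upper end, scored 16.6, and those at 155945424 and 155946136, 57 and 769 bp outside the same end, scored 3.35 and 2.03. The sites thus ran from the gene body across its upper end, with the weaker ones next to that end. None of the 4 was or could be shared, since the nearest Tbx5 summit lay 77.8 kb from the gene. The count of 0 of 4 alone allows a share of up to 60.2% (upper bound of the exact Clopper-Pearson 95% interval, for counting error only). That bound takes no account of the distance.

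Regulatory sequence of Gdf5 is known to extend into its neighbour Uqcc1. The nearest-gene rule gives summits inside Uqcc1 (155846886 to 155930310) to that gene. There were 4 Pitx1 summits inside Uqcc1 within 100 kb of Gdf5, with scores of 100 at position 155863337, 18.9 at 155930100, 8.90 at 155902466 and 2.03 at 155871170. The strongest of them ranked 1240 in the Pitx1 list, above every summit assigned to Gdf5 itself. The Tbx5 summit nearest to Gdf5, ranking 3963 of 10273 at position 155863218, lay 119 bp from that strongest site and 77.8 kb from Gdf5. The only shared site within 100 kb of Gdf5 was therefore inside Uqcc1, and which gene it serves was not tested.

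Gdf6 (chromosome 4, 9844372 to 9862345) held 9 Pitx1 summits, of which 4 lay inside the gene and 5 between 7.15 and 73.4 kb outside its lower end. The highest score was 37.3, at position 9780493, 63.9 kb outside the gene. Inside it the scores were 26.4 at 9861420, 17.4 at 9857946, 7.07 at 9849119 and 5.37 at 9847418. Of the other 4 summits outside, those at 9825967 and 9807485 shared rank 17331 of 54941, and those at 9771015 and 9837226 scored 5.92 and 4.84. Within the gene the scores were higher toward its upper end. The nearest Tbx5 summit on the chromosome lay 660 kb from the gene, at position 9184638 with a score of 3.10. With the reach widened to 500 kb, Gdf6 held 17 Pitx1 summits and still no Tbx5 summit. None of the 9 summits was shared. By the same method the count alone allows a share of up to 33.6%, again without regard to the distance of 660 kb.

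**Figure D3:**
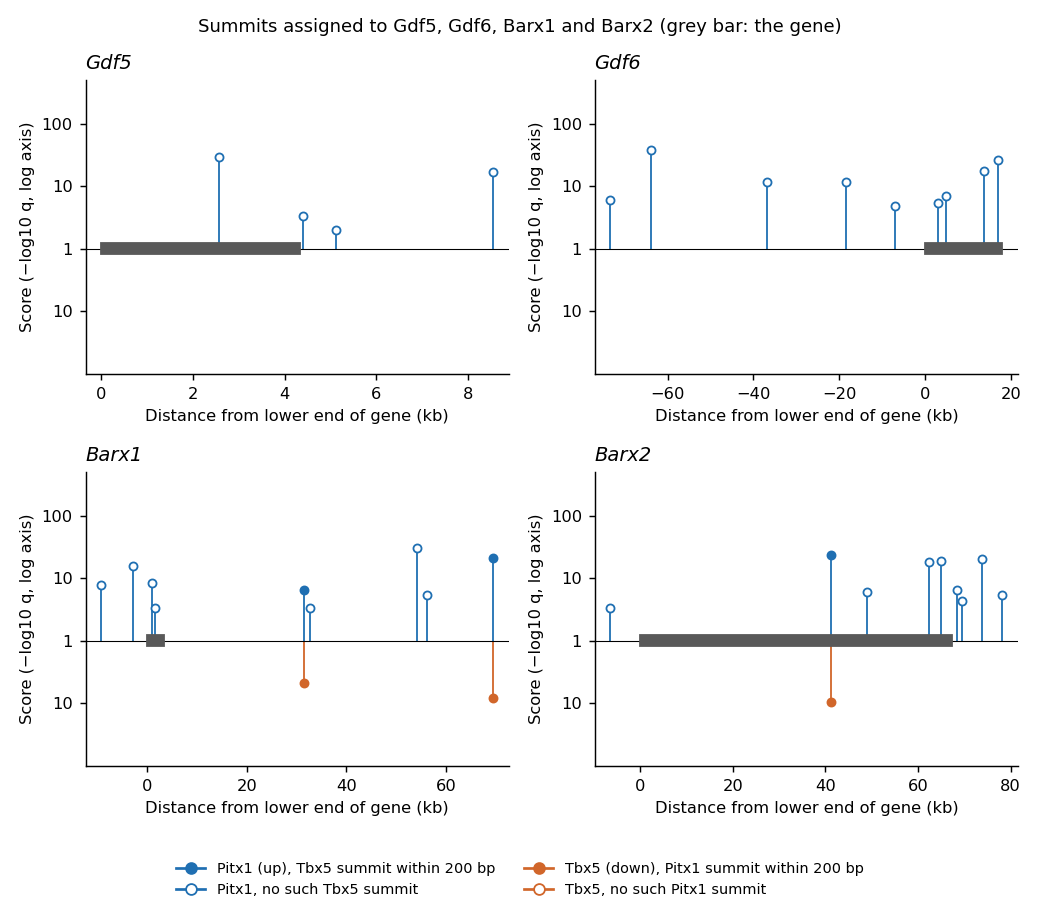
Summits assigned to Gdf5, Gdf6, Barx1 and Barx2 by distance in kb from the lower-coordinate end of the gene (x axis), with the score as −log10 q on a log scale (y axis), Pitx1 upward and Tbx5 downward. Filled circles are shared sites, which occur 2 times at Barx1, 1 time at Barx2 and not at Gdf5 or Gdf6.

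Bmpr1b (chromosome 3, 141837135 to 142169585) held 31 Pitx1 summits, all inside the gene, with scores from 2.03 to 265 and a median of 9.54. The highest, at position 142124390, ranked 163 of 54941 and was the strongest Pitx1 summit at any of the 6 genes. Next came scores of 125 at 141923720, 91.7 at 142099360 and 49.2 at 142094251. These strong sites did not form 1 cluster, since the highest 3 spanned 201 kb. The gene runs on the minus strand, so its upper end is its 5′ end. A summit with a score of 23.0 at 142169404 lay inside the gene within 1 kb of that end, and a summit with a score of 26.4 followed at 142168107.

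Tbx5 summits at Bmpr1b numbered 10, of which 9 lay inside the gene and 1, with a score of 6.40, 10021 bp beyond the upper end at position 142179606. Their scores ran from 4.13 to 41.6 with a median of 7.98. Of the 10, 6 were shared with Pitx1. The strongest Tbx5 summit (41.6 at 142084324) and a Pitx1 summit (23.8) were 83 bp apart. The other shared sites had Tbx5 scores of 9.62 at 141921965 (4 bp from a Pitx1 score of 7.07), 9.62 at 142094242 (9 bp from 49.2), 8.95 at 142019949 (60 bp from 23.8), 7.02 at 142099203 (157 bp from 91.7) and 5.23 at 141921286 (27 bp from 13.6). The strongest Pitx1 site of the gene fell just outside the limit, with a Tbx5 summit of score 8.95 at 142124704, 314 bp away. No stretch of 20 kb at Bmpr1b held more than 9 summits of both factors together, and 2 separate stretches held that many. That from 141920148 to 141934213 had 6 Pitx1 and 3 Tbx5 summits and contained the Pitx1 site with a score of 125 and the internal starts at 141931420 and 141931588. That from 142084324 to 142101916 had 5 Pitx1 and 4 Tbx5 summits and contained the strongest Tbx5 site of the gene.

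Beyond its upper end, between Bmpr1b and Pdlim5 (142239585 to 142395719), lay further sites that the rule gives to Pdlim5. A Tbx5 summit with a score of 192 at 142238538, rank 119 of 10273, stood 36 bp away from Pitx1 binding of score 156, rank 554. This pair was 69.0 kb from Bmpr1b and 1.01 to 1.05 kb outside Pdlim5. A Tbx5 summit with a score of 58.5 at 142213015, nearer to Pdlim5 (26.6 kb) than to Bmpr1b (43.4 kb), had Pitx1 binding of score 10.9 at 15 bp. Both Tbx5 scores exceeded every Tbx5 score assigned to Bmpr1b. Counting every summit within 100 kb of the gene, Bmpr1b had 47 Pitx1 and 17 Tbx5 summits in place of 31 and 10.

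Creb5 (chromosome 6, 53287226 to 53700364) held 46 Pitx1 summits, 38 of them inside the gene, with scores from 2.89 to 127. The strongest 3 lay close together within 18.8 kb, with scores of 127 at position 53469407, 116 at 53452359 and 104 at 53471199. Scores of 81.1 at 53654288, 53.4 at 53549705 and 41.2 at 53603809 followed. Outside the gene, 7 summits lay below its lower end, which is its 5′ end, and 1 above its upper end. The strongest of these scored 18.1, at 53249835 and 37.4 kb outside the gene.

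Tbx5 summits at Creb5 numbered 15, of which 12 were inside the gene and 3 were 20.8 to 37.4 kb beyond its 5′ end. Scores ran from 2.61 to 48.8 with a median of 7.02. The strongest, 48.8 at 53688976, and a Pitx1 summit of score 10.9 were 83 bp apart. Next were 37.6 at 53314404, 169 bp from a Pitx1 score of 4.32, and 37.5 at 53399113, 29 bp from a Pitx1 score of 22.2. A Tbx5 summit with a score of 35.7 at 53654560 was 272 bp from the Pitx1 site with a score of 81.1 and so fell outside the limit. At the strongest Pitx1 site the Tbx5 summit 88 bp away scored 5.81. The highest 3 sites of each factor at Creb5 were thus in different places.

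Sites of both factors also accompanied each other at lower scores along Creb5. Of its 15 Tbx5 summits 10 were shared. Besides those given above they had Tbx5 scores of 12.4 at 53583680 (Pitx1 24.7), 7.02 at 53363854 (28.1), 6.40 at 53249796 (18.1), 6.40 at 53641670 (17.4), 5.23 at 53266446 (4.11) and 4.67 at 53663503 (5.92). The shared sites lay along nearly the whole gene and on its 5′ side.

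**Figure D4:**
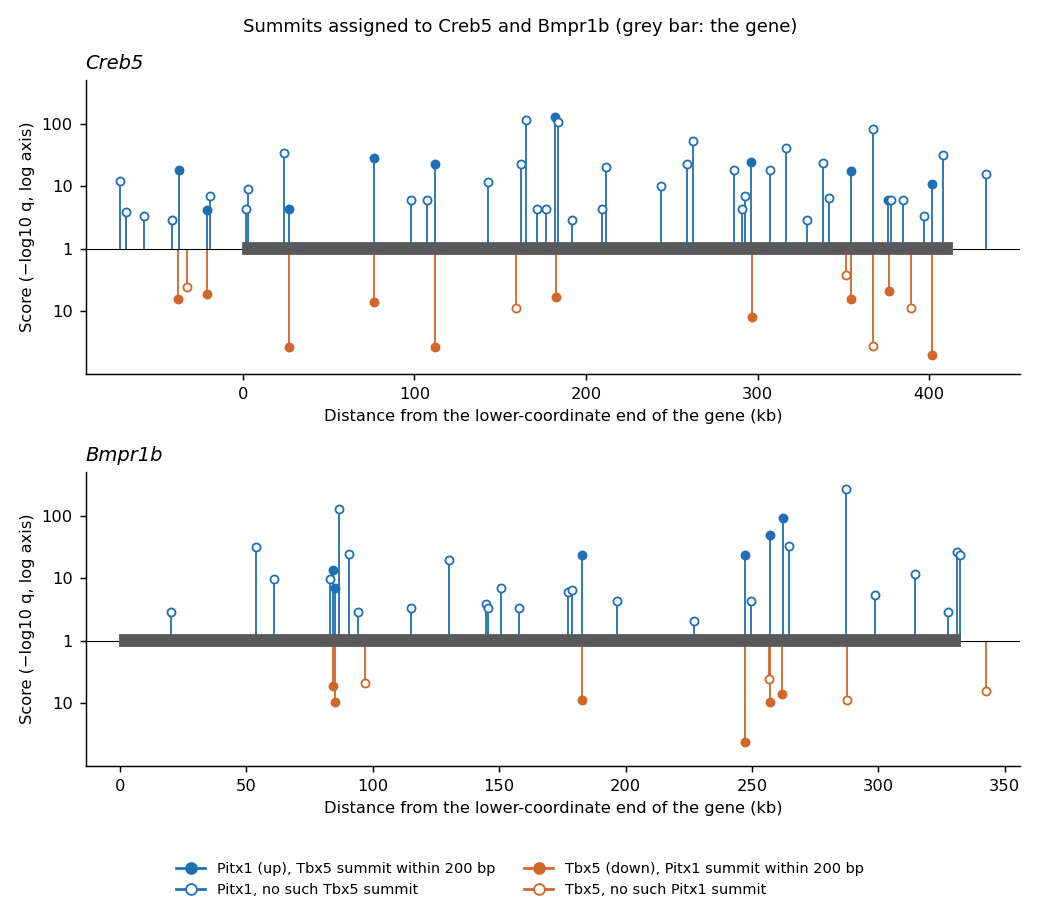
Summits assigned to Creb5 (top) and Bmpr1b (bottom) by distance in kb from the lower-coordinate end of the gene (x axis), with the score as −log10 q on a log scale (y axis), Pitx1 upward and Tbx5 downward; filled circles are shared sites. The highest Pitx1 stems at Creb5 (127, 116 and 104) stand close together, while the highest Tbx5 stem (48.8) stands near the upper end of the gene.

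Barx1 (chromosome 13, 48663036 to 48666507) held 9 Pitx1 summits, 2 inside the gene and 7 outside. The strongest, with a score of 30.8, lay 50.7 kb beyond the upper end at position 48717254, and another with a score of 21.3 lay at 48732467, 66.0 kb beyond it. Nearer to the gene, a score of 15.8 at 48660307, 2.73 kb before the start, was the highest. Both Tbx5 summits of Barx1 were shared and lay beyond the upper end. The summit at 48732392 scored 8.29 and was 75 bp from the Pitx1 score of 21.3, and the summit at 48694619 scored 4.67 and was 58 bp from a Pitx1 score of 6.49. The nearest Tbx5 summit lay 28.1 kb from Barx1, so with the reach cut to 20 kb the gene held 4 Pitx1 summits and none of Tbx5.

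Barx2 (chromosome 9, 31846044 to 31913285) also held 9 Pitx1 summits, 4 inside the gene, 1 below its lower end and 4 above its upper end. Scores ran from 3.35 to 23.0, the narrowest range among the 6 genes. The strongest, at 31887178 inside the gene, was the shared one, 53 bp from the only Tbx5 summit of the gene, at 31887231 with a score of 9.62. Around the upper end, 6 Pitx1 summits lay within 15.7 kb, from 31908510 to 31924255, with no Tbx5 summit among them. The highest scores there were 20.5 at 31919944, 18.9 at 31910930 and 18.1 at 31908510.

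Over the 6 genes, 19 of the 28 Tbx5 summits were shared, which is 67.9% (exact Clopper-Pearson 95% interval 47.6 to 84.1), beside 39.5% of the whole Tbx5 list. The interval covers the counting of summits only, and summits of 1 gene are not replicates. Shares were 66.7% at Creb5 (38.4 to 88.2), 60% at Bmpr1b (26.2 to 87.8), 2 of 2 at Barx1 and 1 of 1 at Barx2. Of the Pitx1 summits 19 of 108 were shared, 17.6% (10.9 to 26.1), beside 7.39% of the Pitx1 list. Of the genes most like Creb5, Sox6 had 11 of 17 Tbx5 summits shared, Epha3 5 of 13 and Smyd3 5 of 14. Of those most like Bmpr1b, Meis2 had 6 of 9 shared, Ebf2 5 of 10 and Meis1 4 of 10. No test compared these shares with those of other genes.

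Shares are given here by Tbx5 score, which went with sharing over the whole list, and for other genes with many assigned Pitx1 summits. Of the Tbx5 summits at the 6 genes, 9 of 14 below the list's median score were shared and 10 of 14 at or above it, beside 30.5% and 48.1% of the whole list. At other genes with at least 8 Pitx1 summits per 100 kb of domain, 748 of 1466 Tbx5 summits (51.0%) were shared, and at other genes with at least 30 Pitx1 summits 486 of 1008 (48.2%). Both values lie between that of the whole list, 39.5%, and that of the 6 genes, 67.9%, and were not tested against either. The part of Pitx1 density in the share was not tested.

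Shared summits lie within 200 bp of each other by definition, so their closeness is not a result. Within that limit the distances ran from 4 to 169 bp with a median of 61 bp, beside 60 bp over all 4062 shared Tbx5 summits. A Pitx1 summit stood within 100 bp of 16 of the 28, within 200 bp of 3 more and within 500 bp of another 3. No Tbx5 summit lay 501 to 1000 bp away, and 6 lay farther. The scores of the 19 pairs had a Spearman correlation of 0.203, beside 0.128 over all 4062 pairs. These are descriptions across sites of the same pair of libraries.

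**Figure D5:**
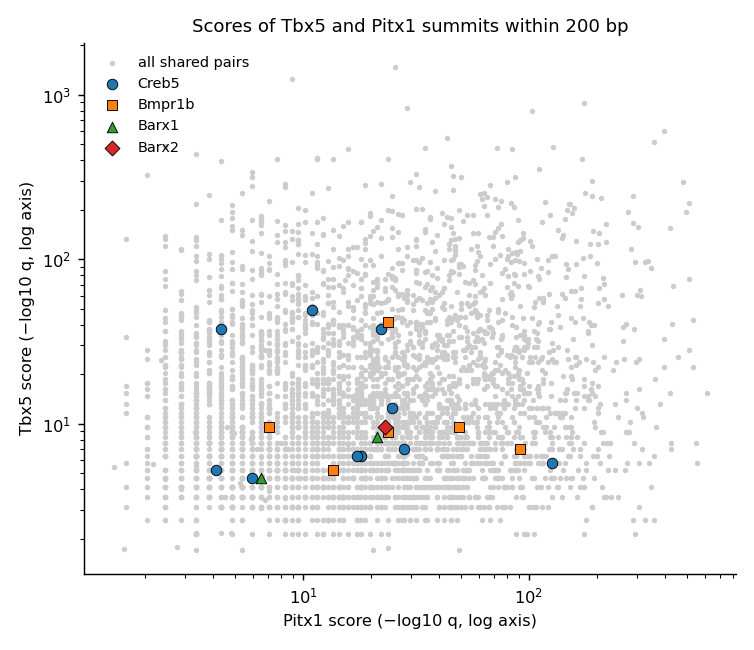
Tbx5 score against Pitx1 score, both as −log10 q on log axes, for all 4062 shared Tbx5 summits (grey) and the 19 at Creb5, Bmpr1b, Barx1 and Barx2. The 19 pairs lie within the grey cloud, with Tbx5 scores from 4.67 to 48.8 and Pitx1 scores from 4.11 to 127.

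A second Pitx1 list of the same sample carries the label Mrep2, which is not explained. By a criterion not given in the sources used here, it holds a subset of the longer list. It kept 43 of the 108 summits, 39.8% (30.5 to 49.7), beside 32.4% of the longer list. It kept 18 of 46 at Creb5, 12 of 31 at Bmpr1b, 4 of 9 at Gdf6 and at Barx1, 3 of 9 at Barx2 and 2 of 4 at Gdf5. All 10 Pitx1 summits with scores of 41.2 or more at Creb5 and Bmpr1b were kept. The highest at Gdf6 (37.3) and at Barx2 (23.0) were not. The subset follows the score, so shares were also read within ranges of it. At scores of 20 or more it kept 26 of 33 summits of the 6 genes (78.8%) and 83.8% of the longer list, and at scores under 5 it kept 3 of 30 and 8.07%. Of the 19 shared Pitx1 summits it kept 11 (57.9%), beside 58.6% of all shared Pitx1 summits.

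Related genes were read from 4 lists, beside the 54.5% of all protein-coding genes with a Pitx1 summit and the 18.7% with a Tbx5 summit. Among 17 genes of GDF and BMP signalling, from the ligand Gdf7 and the receptors to the Smad mediators and Id targets, 14 had Pitx1 and 8 had Tbx5 summits, with medians of 4 and 0, beside medians of 1 and 0 over all protein-coding genes. Smad7, an inhibitor of the pathway, held 13 Pitx1 and 3 Tbx5 summits, Id3, a target, 8 and 3, and the inhibitor Smad6 9 and 1. The related type I receptor Bmpr1a held 7 and 0 in a domain of 99.8 kb, and the type II receptor Bmpr2 5 and 0. Acvr2a, Acvr2b and Smad9 had none of either.

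All 16 genes of the joint interzone had Pitx1 summits, with a median of 6.50, and 7 had Tbx5 summits. Erg, a transcription factor of joint cartilage, held 21 and 5, Sulf1, which modifies heparan sulfate, 17 and 1, and the transcription factor gene Osr2 14 and none, while Sfrp2, a secreted Wnt inhibitor, held 11 and 3. Prg4 held 2 and 2, of which 1 was shared. Of 11 genes of brachydactyly and digit formation all had Pitx1 summits, with a median of 9, and 5 had Tbx5 summits. Ror2, a receptor of Wnt5a, held 35 and 7, Sox9, the master gene of cartilage, 22 and 1, and Hoxa13 15 and none. By number of summits, Ror2 was the only gene of the 4 lists with more for Pitx1 than Bmpr1b, and none had as many for Tbx5. By density Bmpr1b, with 8.41 Pitx1 and 2.71 Tbx5 summits per 100 kb, did not lead these genes. Hoxa13 held 43.1 Pitx1 summits per 100 kb in a domain of 34.8 kb, and Id3 held 13.3 and 4.98 in 60.2 kb. Each list taken as a whole lay below Bmpr1b, at 3.94 to 8.19 for Pitx1 and 0.533 to 0.821 for Tbx5. The 10 relatives of Creb5 gave 7 genes with Pitx1 and 4 with Tbx5 summits, led by Creb3l2 (17 and 2), Creb3l1 (8 and 1) and Creb1 (4 and 1). Atf2, to which Creb5 is related, held 3 and none, and Atf1, Creb3 and Creb3l3 had none of either.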

How the data were processed

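The deposited files hold summit positions on mm10 for 1 Pitx1 and 1 Tbx5 sample. Their scores were read as the −log10 of the q-value that the authors' peak caller writes. The submitters' processing notes name MACS2 2.1.1.20160309, HOMER, Bowtie2 2.2.6 and Bowtie 1.1.2 without saying what each did. The second Pitx1 file also holds a deposited score and distances with no explanation, which were not used. The sample labels include an input for hindlimb at e11.5 and an input for Tbx5 in forelimb at e10.5. Whether these served as controls in peak calling, the read depth and the filters are not stated in these sources. Peak names in the Tbx5 list carry the label rep2.

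Summits were assigned with Python 3.11.15 (pandas 2.3.3, numpy 2.4.6, scipy 1.17.1) to 21887 protein-coding genes of a RefSeq table of GRCm38.p6, ties inside overlapping genes going to the gene with the nearest end. Domains were measured on a grid of 100 bp. Assignment and sharing were tested on simulated data. Exons and introns were not used. With 1 sample a factor no test was run. Named by rule were all members, their highest 3 summits, shared sites and summits within 1 kb of a gene end, and from each related list the 3 genes with most summits (ties included) and those with none. Other summits, neighbours and related genes (Bmpr1a, Bmpr2, Prg4, Atf2) were named after their values were seen. Members and lists were chosen with earlier results of these data known. Histone mark and input samples were not analysed here. Alternatives varied the reach, the sharing limit, the gene table, the score and the Pitx1 list.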

Additional observations from a re-analysis of the deposited data

How the results depend on the processing

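The 6 genes held between 85 and 138 Pitx1 and between 21 and 37 Tbx5 summits when the reach was 20, 50 or 500 kb, when all genes of the table competed, or when every summit within 100 kb counted. The shared Tbx5 summits then numbered 14 to 25, and with limits of 100, 500 and 1000 bp 16, 22 and 22. Summits at or above the median score of each list numbered 62 for Pitx1 and 14 for Tbx5, with 9 shared, and 59.7% of those Pitx1 summits were in the second list. With the second Pitx1 list, 43 Pitx1 summits and 11 shared ones were left. With as many of the highest Pitx1 scores as the Tbx5 list has summits, 31 and 10 were left. These settings remove summits by construction. The count of a single gene, where above 0, stayed within 1.5 times its value in 42 of 72 cases. Against all genes of the table Gdf6 held 5 Pitx1 summits and Barx1 2, and Barx1 then held no Tbx5 summit. No paired analysis was possible because each factor has 1 sample. Read depth, which is unknown, limits what either list could hold, so a missing summit does not show absent binding.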

Other observations

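The authors' peak names carry numbers in genome order, and numbers are missing from both lists. Between the first and the last summit of each of the 6 genes, 108 of 124 Pitx1 numbers (87.1%) were present, beside 77.8% over the list, and 28 of 31 Tbx5 numbers (90.3%), beside 60.4%. Each stretch starts and ends at a present number by construction, which raises the values of the 6 genes, so the difference cannot be read as a trait of them. At Gdf5 all 4 Pitx1 numbers were present, and at Creb5 15 of 17 Tbx5 numbers were.

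The neighbours of the 6 genes differed in the sites they took within 100 kb. Tril, beyond the upper end of Creb5, was assigned 6 Pitx1 summits and none of Tbx5. Unc5c, which encodes a netrin receptor and ends just below Bmpr1b, had 4 Pitx1 summits and 1 Tbx5 summit in that range, and the Tbx5 summit was shared. Ptpdc1, below Barx1, had 3 and 1, with 82 bp between the Tbx5 summit and Pitx1 binding of score 25.5. Arhgap32, above Barx2, had 1 Pitx1 summit.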
